A study of Mus musculus with 26 samples.

Results

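Serpins are inhibitors that trap serine proteases in an irreversible complex, and clade A holds the family of alpha-1-antitrypsin and antichymotrypsin, much of it made by hepatocytes and secreted into plasma. Some clade A serpins inhibit proteases of inflammation or coagulation, whereas others carry hormones and have lost the inhibitory function. Most mouse clade A genes stand side by side in a cluster on chromosome 12, in which the antichymotrypsin genes were multiplied by duplication. The 7 genes described here are Serpina3n, Serpina3k, Serpina3m and Serpina3g of the antichymotrypsin group, the hormone carriers Serpina6 (corticosteroid-binding globulin) and Serpina7 (thyroxine-binding globulin), and Serpina10 (protein Z-dependent protease inhibitor). They were chosen by name. All 7 were among the 20933 genes measured in the series. Of the 7, 6 lie in the chromosome 12 cluster and Serpina7 lies on the X chromosome.

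The samples come from a time course of liver regeneration in male C57BL6/J wild-type mice aged 7 weeks, from which 3 of 5 liver lobes were removed. The tissue taken out at surgery is the 0 h sample, and regenerating liver was collected at 3, 8, 16, 24, 36, 48 and 168 h. No sham-operated group was analysed here, so the effect of surgery and anaesthesia and that of tissue loss cannot be told apart. Chromatin immunoprecipitation followed by sequencing (ChIP-seq) was made with antibodies against RNA polymerase II (Pol II) and against C/EBPalpha and C/EBPbeta, related leucine zipper factors of hepatocytes, at all 8 times, and against the zinc finger factor Egr1 at 36 h. Livers of 5 mice were used per time and the labels do not say whether they were pooled. There was 1 library per antibody and time, hence no replicates.

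Pol II is given as a signed signal over each gene body, beginning about 500 bp past the gene start and with a background subtracted, and was divided here by the width of the body. Levels below are this deposited signal per bp. Changes against 0 h are log2 differences after libraries had been rescaled to each other, with values below 0 set to 0 and 0.5 added, which understates changes of low genes. The 3 h library stood apart from the others: 50.6% of its entries were below 0, against 38.4% to 44.3% in the other 7, and its entries summed to -1.63e+07, against 3.26e+07 or more. No read counts come with the signal, so the sequencing depth behind it is unknown. The labelled tissue was checked with marker genes. The 6 hepatocyte markers summed to 283 to 833 signal per bp over the 8 libraries, and all 6 were present. Most of the sum at 3 h was Apoa1 (651), and in that library Alb, Ttr and Cyp2e1 had log2 changes of -1.17, -2.67 and -1.33 and the list's median change was -0.83. Of the other lists, 6 macrophage markers summed to 1.33 to 4.36, 5 endothelial markers to -0.99 to 1.18, and 6 lymphocyte and 6 stellate cell or fibroblast markers to below 0 in all 8 libraries. The 4 measured neutrophil markers summed to -0.42 to 6.15, most of it from Camp (7.06 at 0 h), with Ly6g, S100a9 and Mpo never above 0.5, and the 3 cholangiocyte markers reached 4.31 at 16 h through Sox9 and were below 0 in the other 7. The part of these cells in the results was not tested. In whole tissue, a change in the share of a cell type and a change of Pol II per cell cannot be told apart.

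Serpina3n, an acute phase inhibitor whose human counterpart blocks cathepsin G, had the widest range of the 7. Its body lies on the plus strand of chromosome 12 at 105645440 to 105652538 (mm9). The Pol II level was 4.13 signal per bp (0 h), 150 (3 h), 55.9 (8 h), 40.2 (16 h), 8.30 (24 h), 18.9 (36 h), 38.8 (48 h) and 6.27 (168 h). The 0 h library was the lowest and the 3 h library the highest, with a second, lower maximum at 48 h. Among the 4750 genes with a level above 0.5 in at least 2 libraries, which are called tested here, Serpina3n ranked 859th at 0 h, 22nd at 3 h and 246th at 24 h. The log2 changes were 5.26 (3 h), 3.91 (8 h), 2.79 (16 h), 1.30 (24 h), 2.04 (36 h), 3.39 (48 h) and 1.45 (168 h). Its change was the 12th highest of the 4750 genes at 3 h and the 11th highest at 8 h. The peak at 3 h rests on the library that stood apart. With that library left out of the rescaling, the change at 8 h was 3.93 and that at 48 h was 3.41.

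Serpina3k, known as contrapsin and a trypsin inhibitor of mouse plasma, lies 5′ of Serpina3n on the same strand, at 105577219 to 105584348. Its level was 22.2 (0 h), 110 (3 h), 93.0 (8 h), 80.1 (16 h), 81.9 (24 h), 80.5 (36 h), 87.7 (48 h) and 11.4 (168 h). As deposited, the 6 libraries from 3 to 48 h thus lay between 80.1 and 110, and the 0 h and 168 h libraries were low. At 24 h Serpina3k had the 8th highest level of the 4750 tested genes. The log2 changes, after rescaling, were 2.54 (3 h), 2.36 (8 h), 1.50 (16 h), 2.26 (24 h), 1.82 (36 h), 2.28 (48 h) and 0.01 (168 h). The value at 168 h depended on scaling, being -0.93 without rescaling.

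The contrast between these neighbours was in the shape of the time course. As a percentage of its own 3 h level, as deposited and before rescaling, Serpina3n stood at 37.2% (8 h), 5.52% (24 h) and 25.8% (48 h). For Serpina3k the same percentages were 84.6%, 74.4% and 79.8%. The ratio of the Serpina3n to the Serpina3k level within a library, which does not depend on scaling, was 0.185 (0 h), 1.37 (3 h), 0.601 (8 h), 0.501 (16 h), 0.101 (24 h), 0.235 (36 h), 0.443 (48 h) and 0.549 (168 h). Serpina3n was thus above Serpina3k in the 3 h library only. The test that follows takes the 8 times as its units, so its spread includes the time course and is not that of replicates. Over the 8 libraries Serpina3n was lower by a mean log2 difference of -1.35 ± 1.13 (SD, n = 8; exact two-sided sign-flip permutation test, p = 0.0156, adjusted over 6 pairs p = 0.0188).

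**Figure D1:**
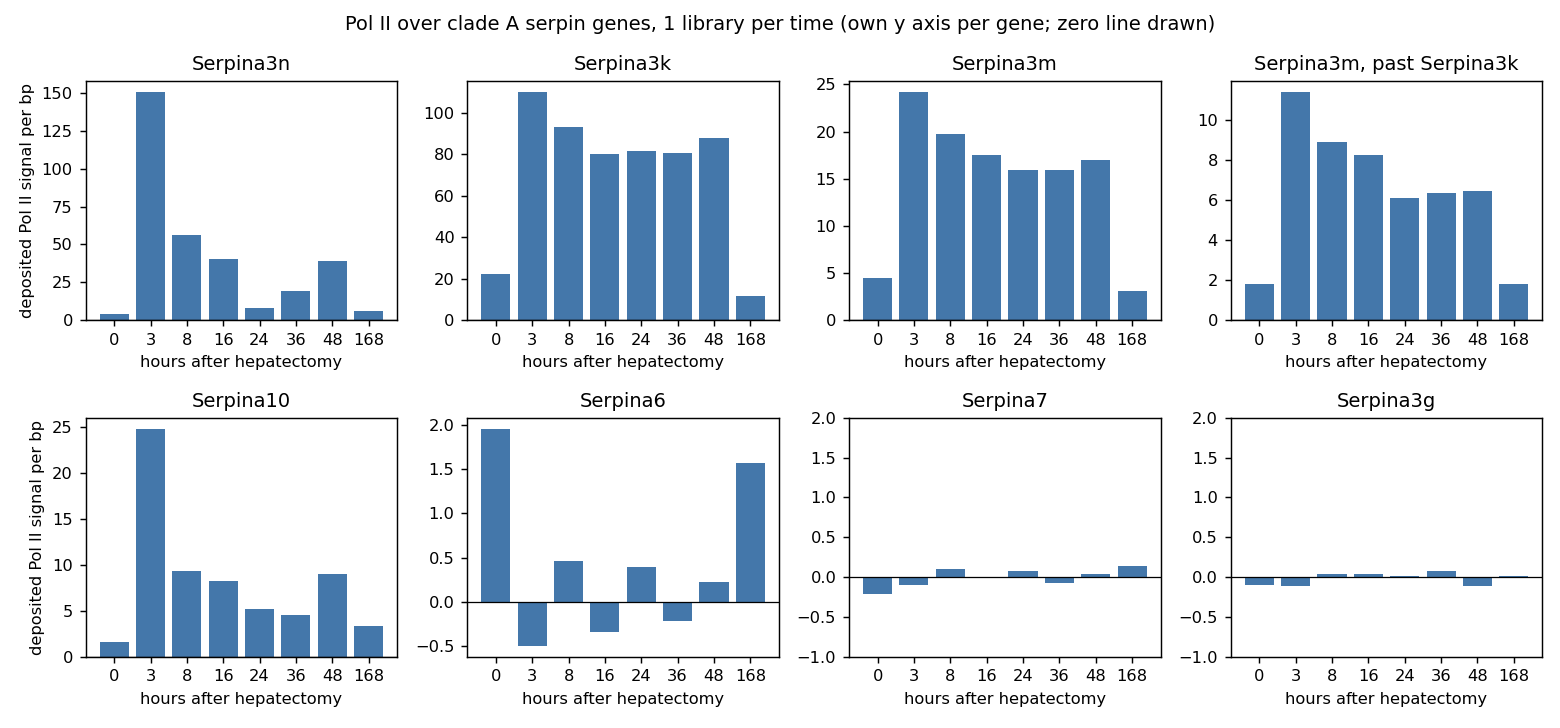
Deposited Pol II signal per bp (y axis, a separate scale for each gene) at 8 times after hepatectomy (x axis, hours, evenly spaced) for the 7 genes and for the stretch of the Serpina3m entry past Serpina3k. Each bar is 1 library: Serpina3n peaks at 150 at 3 h and falls to 8.30 at 24 h, Serpina3k holds 80.1 to 110 from 3 to 48 h, and Serpina6 is above 1 only at 0 h and 168 h.

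Serpina10, which with its cofactor protein Z inhibits coagulation factor Xa, is on the minus strand at 104854886 to 104869131, at the other end of the cluster. Its level was 1.58 (0 h), 24.8 (3 h), 9.32 (8 h), 8.25 (16 h), 5.25 (24 h), 4.60 (36 h), 9.05 (48 h) and 3.39 (168 h). As for Serpina3n, the highest library was 3 h and a lower maximum came at 48 h. Its level at 8 h was 37.6% of that at 3 h, close to the 37.2% of Serpina3n, but at 24 h it was 21.2% against 5.52%. The log2 change was 3.80 (3 h), 1.25 (36 h) and 2.46 (48 h). Serpina3n exceeded Serpina10 in 8 of 8 libraries, by a mean log2 difference of 1.73 ± 0.77 (SD, n = 8; exact sign-flip test, p = 0.0078, adjusted p = 0.0117). That p is the smallest the 8 libraries can give.

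Serpina6, whose product carries glucocorticoids in plasma, went the other way. Its body lies at 104885111 to 104891922 on the minus strand, the next cluster gene to Serpina10. The level was 1.96 (0 h), -0.498 (3 h), 0.465 (8 h), -0.337 (16 h), 0.393 (24 h), -0.220 (36 h), 0.226 (48 h) and 1.57 (168 h). The 0 h and 168 h libraries were the 2 highest. How many of all tested genes have this order was not counted. The log2 changes were -2.11 (3 h), -1.12 (8 h) and -1.54 (48 h), and 0.52 (168 h), where the value without rescaling was -0.25. The -2.11 is set by the floor at 0 and the added 0.5, since the 3 h level was below background. With 0.05 added it was -5.09 and with 2 added -0.87. Serpina6 passed the filter on low values through the 0 h and 168 h libraries alone, so a gene passing this way had to be lower between them.

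The Serpina3m entry covers more than the gene. It runs from 105577219 to 105632209, begins at the same base as Serpina3k and contains its whole body. The width of 54991 bp is 7.74 times the RefSeq length of Serpina3m, 7103 bp (assembly GRCm38.p6). Its level was 4.45 (0 h), 24.2 (3 h), 19.8 (8 h), 17.6 (16 h), 15.9 (24 h), 16.0 (36 h), 17.0 (48 h) and 3.06 (168 h). Between 48.3% and 67.0% of the signal in a library lay in the body of Serpina3k. With Serpina3k subtracted, the remaining 47861 bp (105584349 to 105632209) held 1.80 (0 h), 11.4 (3 h), 8.88 (8 h), 8.22 (16 h), 6.10 (24 h), 6.35 (36 h), 6.45 (48 h) and 1.82 (168 h). As deposited, this remainder was, like Serpina3k, lowest at 0 h and 168 h, and it was lower from 24 to 48 h than from 3 to 16 h. The latter order depended on scaling. After rescaling, the log2 changes of the remainder were 1.58 (16 h), 1.86 (24 h), 1.53 (36 h) and 1.86 (48 h). How much of it is Serpina3m itself cannot be read from the file. Serpina3n exceeded the Serpina3m entry in 6 of 8 libraries, by 0.83 ± 1.07 (SD, n = 8; exact sign-flip test, p = 0.0547, also after adjustment), which did not pass 0.05.

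Serpina7 and Serpina3g had no Pol II above 0.5 in any library. For Serpina7 (X chromosome, 135613797 to 135619256, minus strand) the lowest level was -0.206 at 0 h and the highest 0.134 at 168 h. For Serpina3g, an inhibitor of lysosomal cathepsins best known from haematopoietic cells (105476509 to 105480143, plus strand), the lowest was -0.115 at 3 h and the highest 0.072 at 36 h. Both genes were below the filter and were not tested, so no change is given. With 0.5 added, Serpina3n exceeded Serpina7 by a mean log2 difference of 5.36 ± 1.71, Serpina3g by 5.45 ± 1.67 and Serpina6 by 4.61 ± 2.43 (SD, n = 8 each). Each difference was positive in 8 of 8 libraries (exact sign-flip test, p = 0.0078, adjusted p = 0.0117). Serpina3n was at 4.13 or above in every library and these 3 genes at 1.96 or below. The p could thus only be the smallest that 8 libraries give, and it adds nothing to the levels. The size of the differences is set by the added constant, since the 3 genes were at or near background: with 0.05 added they were 7.97, 8.34 and 6.27, and with 2 added 3.61, 3.64 and 3.30. By mean level the order was Serpina3k, Serpina3n, the Serpina3m entry, Serpina10, Serpina6, Serpina7 and Serpina3g. Serpina3n and the Serpina3m entry, neighbours in this order, did not differ beyond their spread, and the last 2 were both at background. These libraries are different times, so the spread in these tests includes the time course.

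Of the 7 genes, 5 were tested for a change: Serpina3n, Serpina3k, the Serpina3m entry and Serpina10, each above 0.5 in all 8 libraries, and Serpina6. At 3 h, 4 were higher by 1 or more on the log2 scale, against 18.4% of all tested genes, and 1 was lower, against 21.8%. The same 4 were higher and Serpina6 was lower at every time to 48 h. The shares of all tested genes higher by that much were 14.5% (8 h), 15.3% (16 h), 17.5% (24 h), 16.7% (36 h) and 14.9% (48 h). The shares lower were 13.5%, 10.5%, 15.3%, 11.3% and 14.1%. At 168 h, 2 were higher, Serpina3n and Serpina10, against 15.9%, and none was lower, against 20.6%. Without rescaling none of the 5 was higher by 1 at 168 h, and at 24 h 3 were, Serpina3n having a change of 0.93. All changes share the single 0 h library, and the Serpina3m entry holds the signal of Serpina3k. Serpina6 passed the filter through the 0 h and 168 h libraries alone, so it had to be lower between them. The shares lower over all tested genes are therefore no fair comparison for it.

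A smooth curve over the 8 times, fitted with limma to all 4750 tested genes, called 1 gene, or 0.0211%, and none of the 5 members. The adjusted p was 0.544 for Serpina6, 0.575 for Serpina3k, 0.586 for the Serpina3m entry, 0.649 for Serpina3n and 0.683 for Serpina10. At an unadjusted p under 0.05 the curve gave 457 genes and again none of the 5. The changes above thus did not pass a test over time in these libraries.

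**Figure D2:**
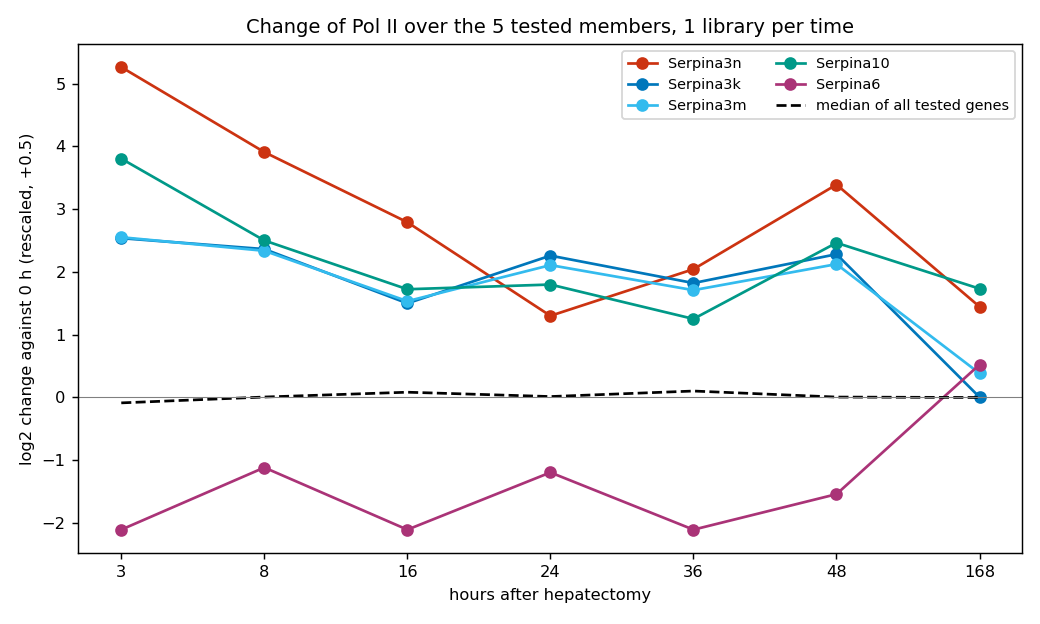
Log2 change of Pol II against 0 h (y axis, rescaled, 0.5 added) at 7 times (x axis, hours, evenly spaced) for the 5 tested genes, 1 library per point. Serpina3n falls from 5.26 at 3 h to 1.30 at 24 h and is at 3.39 at 48 h, Serpina3k and Serpina3m overlie each other, Serpina6 is below 0 until 168 h, and the dashed median of all tested genes stays near 0.

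Among the members the log2 levels of Serpina3n and Serpina10 ran most alike apart from the overlapping Serpina3k and Serpina3m (Pearson r = 0.93 over 8 libraries), and those of Serpina3n and Serpina3k less so (r = 0.75). Serpina6 had r = -0.63 with Serpina3n and -0.80 with Serpina3k, but only 5 of its 8 levels were above 0 and the rest were set to 0. These r describe 8 libraries that share the 3 h peak and the scaling. Of all tested genes, the 5 most like Serpina3n were Bcl3, a nuclear cofactor of NF-kappaB (0.985), RP23-340H1.3 (0.977), the acute phase genes Itih4 (0.977) and Hp (0.976), and Gas6, a ligand of TAM receptors (0.976). Hp, encoding haptoglobin, had levels of 41.1 (0 h), 696 (3 h), 217 (8 h), 249 (16 h), 83.7 (24 h), 112 (36 h), 189 (48 h) and 32.5 (168 h). Like Serpina3n it was highest at 3 h with a lower maximum at 48 h. As deposited, Hp was higher at 16 h than at 8 h and lowest at 168 h. Both differences depended on scaling: after rescaling its log2 changes were 2.71 (8 h), 2.26 (16 h) and 0.62 (168 h). The genes most like Serpina3k, beside the overlapping Serpina3m entry, were Timm44 (0.971), Bcl2l2 (0.964), Cops7a (0.960) and Hnrnpa3 (0.957). Of these 4, Timm44, Bcl2l2 and Cops7a had low levels, with Timm44, of mitochondrial protein import, at -0.043 at 0 h and 0.581 at 3 h. Hnrnpa3, an RNA-binding protein, was at 2.15 (0 h), 3.39 (3 h) and 1.04 (168 h).

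Of 19 further clade A serpins listed, 15 were measured and 6 tested, with none called by the trend, and 8 were never above 0.5. The highest by mean level was Serpina1e, at 0.822 (0 h), 10.3 (3 h), 8.88 (36 h) and 1.62 (168 h). The lowest was Serpina3a, below 0 in all 8 libraries. At 3 h, 2 of the 6 tested were higher by 1, Serpina1e and Serpina11 (1.03 at 0 h and 7.61 at 3 h), and 2 were lower, Serpina1b (5.02 and 0.742) and Serpina1d (1.57 and 0.183). The shares of all tested genes were 18.4% higher and 21.8% lower, and counts out of 6 cannot be told from these. The median change of the 6 was -0.70, against -0.09 over all tested genes. The Serpina1 genes are near-identical copies and so are stretches of the Serpina3 genes. The sources used here do not give how reads with several matches were handled, so the split of signal among copies is uncertain.

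**Figure D3:**
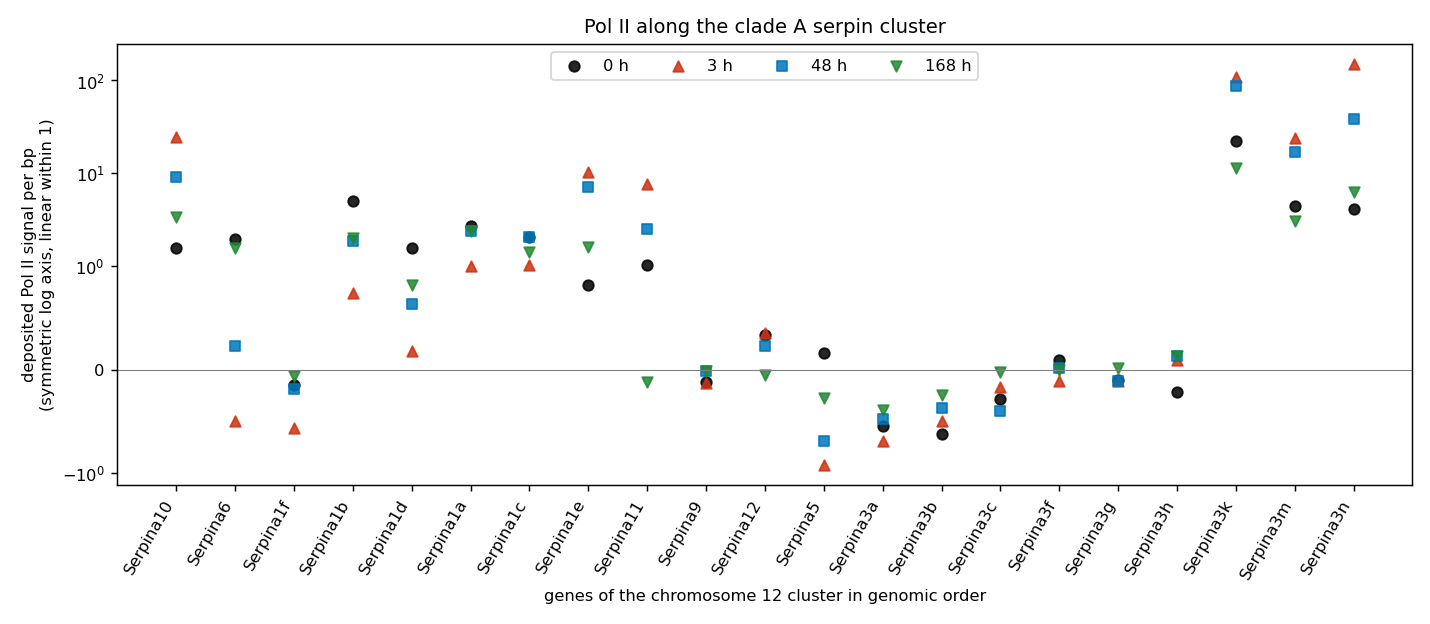
Deposited Pol II signal per bp (y axis, symmetric logarithmic scale, linear between -1 and 1) for the measured genes of the chromosome 12 cluster in genomic order (x axis), at 0, 3, 48 and 168 h, 1 library each. At 3 h the highest levels are at the 2 ends of the cluster, Serpina10 on the left (24.8) and Serpina3k and Serpina3n on the right (110 and 150), at 0 h Serpina1b (5.02) is above Serpina3n and Serpina10, and the genes from Serpina9 to Serpina3h stay below 0.5 at these 4 times.

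Lists of related genes set these values in context. Of 15 other acute phase genes measured, 14 were tested. At 3 h 13 of these were higher by 1, against 18.4% of all tested genes, and their median log2 change was 4.49 against -0.09. Hp was the highest by mean level and Crp, at 0.025 at 3 h, the lowest. Serpina3n (5.26) was above that median at 3 h, and Serpina10 (3.80) and Serpina3k (2.54) below it. At 24 h the list's median was 2.32, above Serpina3n (1.30) and Serpina10 (1.80), and close to Serpina3k (2.26). Of the IL-6 pathway genes, which carry the main acute phase signal to hepatocytes, 7 of 8 measured were tested, and at 3 h 3 were higher, against 18.4% of all tested genes, and 1 was lower, against 21.8%, with a median of 0.41. The lower one was Cebpa, which encodes C/EBPalpha, at 112 at 0 h and 19.0 at 3 h, named after its values were seen. The highest by mean level was Cebpb, which encodes C/EBPbeta, at 68.0 at 0 h and 383 at 3 h, and the lowest was Jak2, at -0.307 at 3 h.

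The shares of all tested genes to set beside the next 3 lists are again 18.4% higher and 21.8% lower at 3 h. Of 12 serpins of other clades, 6 were tested, 1 was higher and 3 were lower at 3 h, with a median of -0.65. Serpinf2, alpha-2-antiplasmin, was the highest by mean level (11.6 at 0 h and 13.9 at 3 h) and Serpinh1 the lowest. Of 11 measured proteases and partners, 7 were tested, 1 was higher and 3 were lower at 3 h, with a median of -0.66. Prothrombin (F2) was the highest by mean level, at 7.85 at 0 h and 14.5 at 3 h, and Gzmb the lowest. Proz, encoding the cofactor of Serpina10 and named after its values were seen, was at 12.2 at 0 h and 3.89 at 3 h, opposite in direction to Serpina10. Of 7 genes of hormone carriage and use, 3 were tested and all 3 were lower at 3 h, with a median of -2.58. This was seen in the 3 h library, which stood apart: the median was -0.02 (8 h), 0.50 (24 h), 0.21 (48 h) and 0.60 (168 h). Alb, the highest by mean level, was at 46.4 at 0 h and 16.9 at 3 h but had log2 changes of 1.02 (24 h), 1.26 (36 h) and 1.23 (168 h). Albumin carries hormones in plasma beside the products of Serpina6 and Serpina7. Thra was the lowest by mean level. None of the genes of these 5 lists was called by the trend.

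The promoter sequences show what the antichymotrypsin copies share and what stood before RefSeq starts of genes with C/EBP regions in most lists or in few. RefSeq promoters (assembly GRCm38.p6) were matched for 3 of the 7 genes, Serpina3n, Serpina3g and Serpina7, and that of Serpina3c is printed as the close copy of Serpina3n. Each run is the 250 bases before the annotated start, 5′ to 3′ on the gene's strand. Capitals mark matches on either strand to the C/EBP letters TTNNGNAA and, in Serpina3g, at base -33, the STAT letters TTCNNNGAA.
Serpina3n, chr12:104406458-104406707, plus strand: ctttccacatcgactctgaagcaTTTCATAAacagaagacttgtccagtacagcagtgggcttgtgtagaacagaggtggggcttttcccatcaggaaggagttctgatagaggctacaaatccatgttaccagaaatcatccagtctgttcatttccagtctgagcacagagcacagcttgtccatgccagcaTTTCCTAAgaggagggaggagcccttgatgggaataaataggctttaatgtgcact
Serpina3c, chr12:104153873-104154122, minus strand: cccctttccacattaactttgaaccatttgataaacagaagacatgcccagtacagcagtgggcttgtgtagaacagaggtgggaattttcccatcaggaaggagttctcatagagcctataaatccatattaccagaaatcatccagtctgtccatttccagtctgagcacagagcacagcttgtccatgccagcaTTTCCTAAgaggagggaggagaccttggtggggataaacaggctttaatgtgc
Serpina7, chrX:139085237-139085486, minus strand: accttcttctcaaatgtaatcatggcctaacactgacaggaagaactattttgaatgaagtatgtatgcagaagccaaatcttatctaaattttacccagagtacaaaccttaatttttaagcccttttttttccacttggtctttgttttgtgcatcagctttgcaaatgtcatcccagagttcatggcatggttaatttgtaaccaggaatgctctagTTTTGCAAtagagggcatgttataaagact
Serpina3g, chr12:104235897-104236146, plus strand: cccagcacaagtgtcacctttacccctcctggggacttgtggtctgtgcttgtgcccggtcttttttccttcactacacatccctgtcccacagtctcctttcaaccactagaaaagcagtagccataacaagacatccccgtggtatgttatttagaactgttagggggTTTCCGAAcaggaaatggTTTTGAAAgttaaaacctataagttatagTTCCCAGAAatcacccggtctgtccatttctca
The Serpina3n and Serpina3c promoters were 92.7% identical over aligned bases, with 229 identical bases, 18 mismatched and 6 gapped. Both hold TTTCCTAA, at -56 in Serpina3n and -53 in Serpina3c, counted back from the start. Serpina3n has a further match, TTTCATAA at -227, that Serpina3c lacks, and Serpina7 has TTTTGCAA at -30. The C/EBP letters were found in 36.9% of 27025 promoters and the STAT letters in 7.18%, so a match alone is common for the first. None of the 4 holds the palindrome TTGCGCAA, which is a special case of the C/EBP letters and is in 0.170% of promoters, or the Egr1 letters GCGNGGGCG, in 4.65%. Despite this likeness Serpina3c had Pol II below 0 in all 8 libraries and a C/EBPalpha region within 10 kb in 1 list and a C/EBPbeta region in 2 lists. A match is not a site, and these coordinates are of another build than the regions below. The Serpina3g body was 3635 bp wide against a RefSeq length of 5793 bp. Its printed promoter may thus not lie at the start used for its regions.

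C/EBP regions stood near most of the 7 genes at most times. A region counts when its centre is within 10 kb of the gene start in the deposited list of that time. For C/EBPalpha, 49 of 56 pairs of a gene and a list had one, or 87.5%, against 34.9% of such pairs over all measured genes, and 5 of the 7 genes had one in all 8 lists, against 18.7%. For C/EBPbeta the numbers were again 49 of 56, against 39.9%, and 5 of 7, against 21.5%. The 5 were Serpina3n, Serpina3k, the Serpina3m entry, Serpina6 and Serpina10 for both factors. The Serpina3m entry shares its start with Serpina3k, so its regions are those of Serpina3k counted again. This start may not be that of the Serpina3m gene, since the entry spans 54991 bp against a RefSeq length of 7103 bp. Regions near the gene's own start were not examined. Serpina7 had a region in 7 lists of each factor and Serpina3g in 2 of each. Serpina7 thus had regions in most lists with no Pol II above 0.5 in any library.

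**Figure D4:**
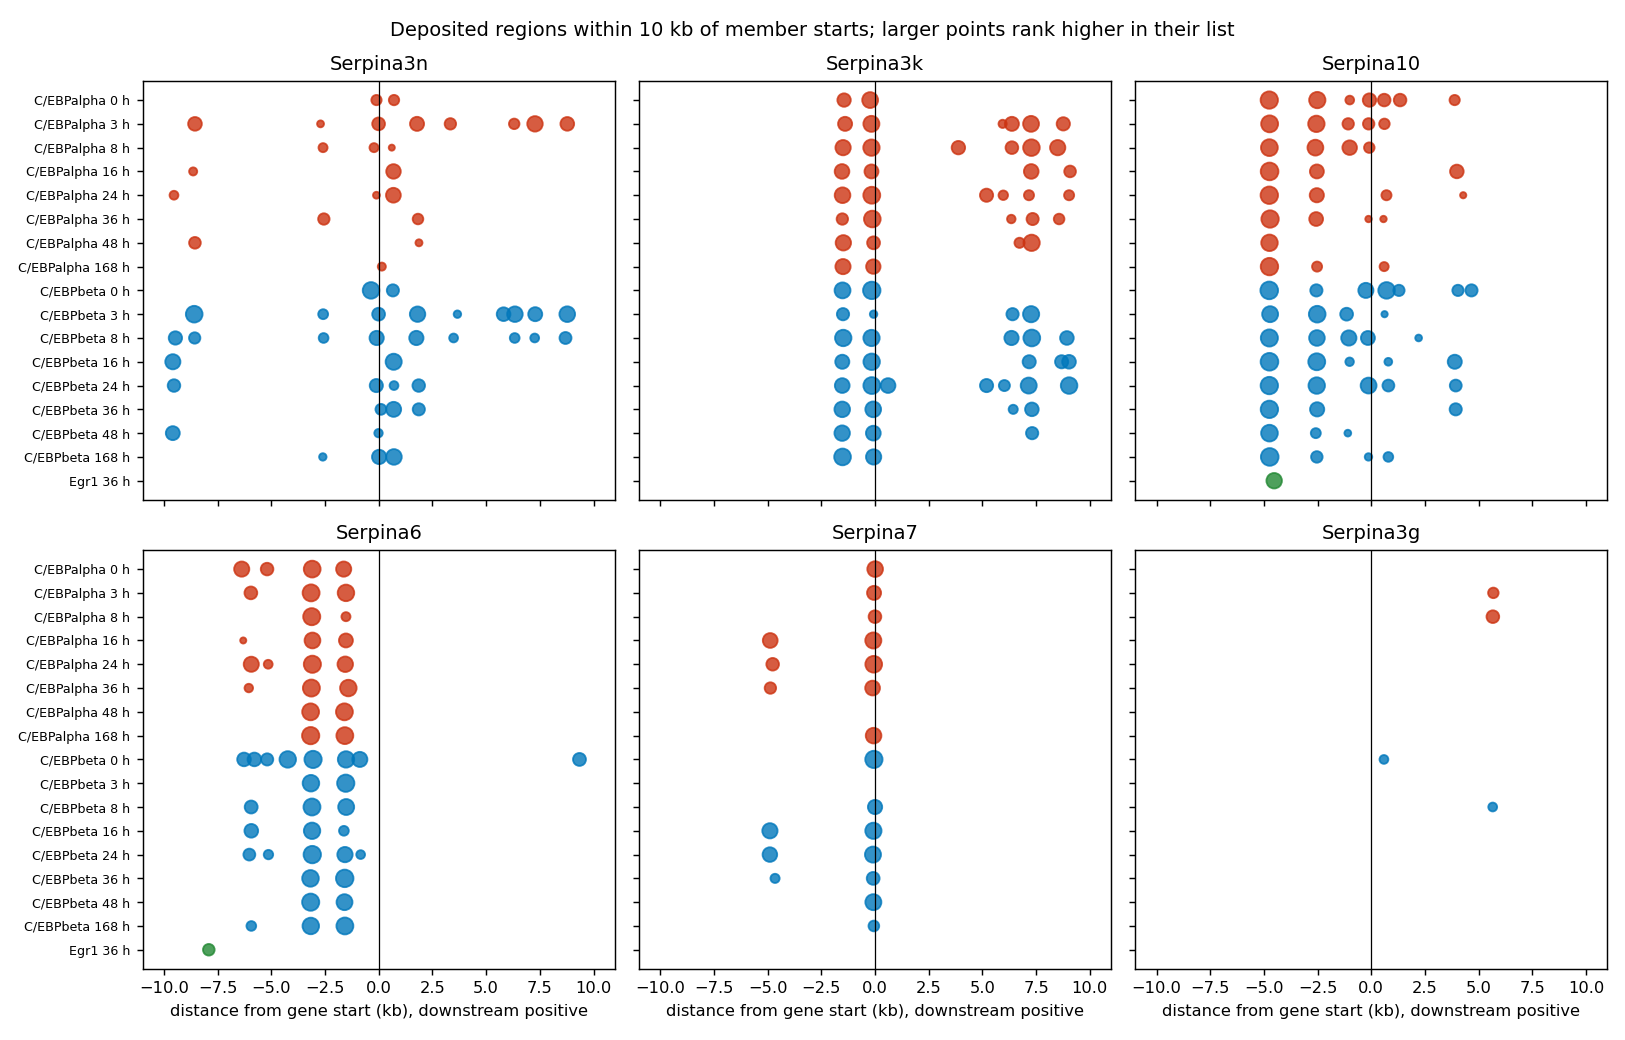
Deposited regions within 10 kb of 6 gene starts (x axis, distance in kb, downstream positive), by list (y axis: 8 C/EBPalpha lists in red, 8 C/EBPbeta lists in blue, Egr1 at 36 h in green), with larger points for a higher score rank within the list. The Serpina3m entry shares the start of Serpina3k and is not drawn. Serpina3k, Serpina10 and Serpina6 have columns of points present in all 16 C/EBP lists, whereas the points of Serpina3n are scattered and most numerous at 3 and 8 h.

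The genes differed in how constant their sites were. Regions with centres joined within 100 bp are called a site. A site present in all 16 C/EBP lists was found within 10 kb of 12.7% of measured genes. Serpina3k had 2, with median centres at -1513 and -151 bp from the start, where a minus means upstream (105575149 to 105575356 and 105576482 to 105576669). Serpina10 had 1, at -4741 (104874330 to 104874395), whose median rank was in the top 5.66% of the C/EBPalpha lists and the top 4.87% of the C/EBPbeta lists. Serpina6 had 1, at -3132 (104895473 to 104895620), where the median rank was 9.89% in C/EBPalpha lists. The Serpina6 body was 6812 bp wide against a RefSeq length of 10589 bp. Its start here may thus not be the RefSeq start, and distances for Serpina6 hold for the entry only. The next site of Serpina6, at -1576, was in 15 lists, as was that of Serpina10 at -2536. The list missing from this Serpina6 site, C/EBPalpha at 36 h, had a region at -1419, just beyond the 100 bp used for joining.

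Serpina3n had no such site. Its most constant one, from -116 to 140 bp from the start, was in 10 of 16 lists (C/EBPalpha at 0, 3, 24 and 168 h, C/EBPbeta at 3, 8, 24, 36, 48 and 168 h). The next, 604 to 708 bp downstream, was in 9. A C/EBPalpha region of 8 h at -224 lay just beyond the 100 bp used for joining to the first of these sites. The best region of Serpina3n ranked in the top 26.8% of a C/EBPalpha list and the top 13.3% of a C/EBPbeta list. The same best ranks were 10.8% and 4.50% for Serpina3k, 1.56% and 1.57% for Serpina10, and 6.53% and 3.76% for Serpina6. Scores are the authors' own and are scaled within each list, so ranks are read within a list only. These best ranks come from different lists and are set side by side with no test. Within 1 kb of the start the order was another one. Serpina3k had a region in 8 C/EBPalpha and 8 C/EBPbeta lists, Serpina7 in 7 and 7, and Serpina3n in 6 and 8. Serpina10 had one in 6 and 6, and Serpina6, counted from the start of its entry, in 0 and 2. The best ranks at that distance were 10.8% and 4.50% for Serpina3k and 13.1% and 6.49% for Serpina7. They were 33.7% and 14.4% for Serpina3n and 47.3% and 14.4% for Serpina10.

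Serpina7, without Pol II signal, had 1 steady site from -114 to 5 bp from the start, in 14 of 16 lists, missing from C/EBPalpha at 48 h and C/EBPbeta at 3 h. Its best ranks were 13.1% and 6.49%. Serpina3g had 3 regions about 5.7 kb downstream, at 3 and 8 h for C/EBPalpha and 8 h for C/EBPbeta, and 1 at 590 bp downstream at 0 h for C/EBPbeta. They ranked low, at 53.7% at best for C/EBPalpha and 82.1% for C/EBPbeta.

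The number of regions near Serpina3n changed with time. C/EBPalpha regions within 10 kb numbered 2 (0 h), 8 (3 h), 3 (8 h), 2 (16 h), 3 (24 h), 2 (36 h), 2 (48 h) and 1 (168 h). C/EBPbeta regions numbered 2, 9, 9, 2, 4, 3, 2 and 3 at the same times. The lists with 8 or 9 were those of 3 h for both factors and 8 h for C/EBPbeta. The lists with most regions near Serpina3n were not much longer than that of 0 h, or were shorter: the C/EBPbeta list held 54574 regions at 0 h, 35256 at 3 h and 36258 at 8 h, and the C/EBPalpha list 29383 at 0 h and 31003 at 3 h.

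As many regions as that were rare. Of all measured genes, 8, or 0.0382%, had at least 8 C/EBPalpha regions at 3 h, and 26, or 0.124%, had at least 9 C/EBPbeta regions. At 8 h, 6 genes, or 0.0287%, had at least 9 C/EBPbeta regions: Serpina3n, Ahsg, Apoc3, Orm1, Ttc39c and RP23-340H1.3. These numbers were looked up after those of Serpina3n had been seen. A rise at 3 h was shared by strongly transcribed genes: the 35 genes at 100 signal per bp or more at 3 h had a median of 3 C/EBPalpha regions at 0 h and 5 at 3 h, and of 3, 6 and 5 C/EBPbeta regions at these times and at 8 h. Of these 35, 2 had at least as many C/EBPalpha regions as Serpina3n at 3 h and 7 had at least as many C/EBPbeta regions, Serpina3n included. Whether signal along a strongly transcribed body adds regions was not tested.

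Serpina3k kept its numbers up for longer, with 2, 6, 6, 4, 6, 5, 4 and 2 C/EBPalpha regions and 2, 4, 5, 5, 7, 4, 3 and 2 C/EBPbeta regions from 0 to 168 h. Beside its 2 constant sites, a site about 7.3 kb downstream (105583864 to 105584070), at the 3′ end of the body, was in 12 lists. These were the lists of both factors from 3 to 48 h, and it was missing at 0 h and 168 h, the times of low Pol II. Some regions lay at like distances from the starts of Serpina3n and Serpina3k. Within 100 bp this held for 3 of the 8 C/EBPalpha regions of Serpina3n at 3 h (6306, 7274 and 8778 bp downstream), and for 3 of 9 C/EBPbeta regions at 3 h and at 8 h. Both genes are copies of each other, and sharing of reads between them was not tested.

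**Figure D5:**
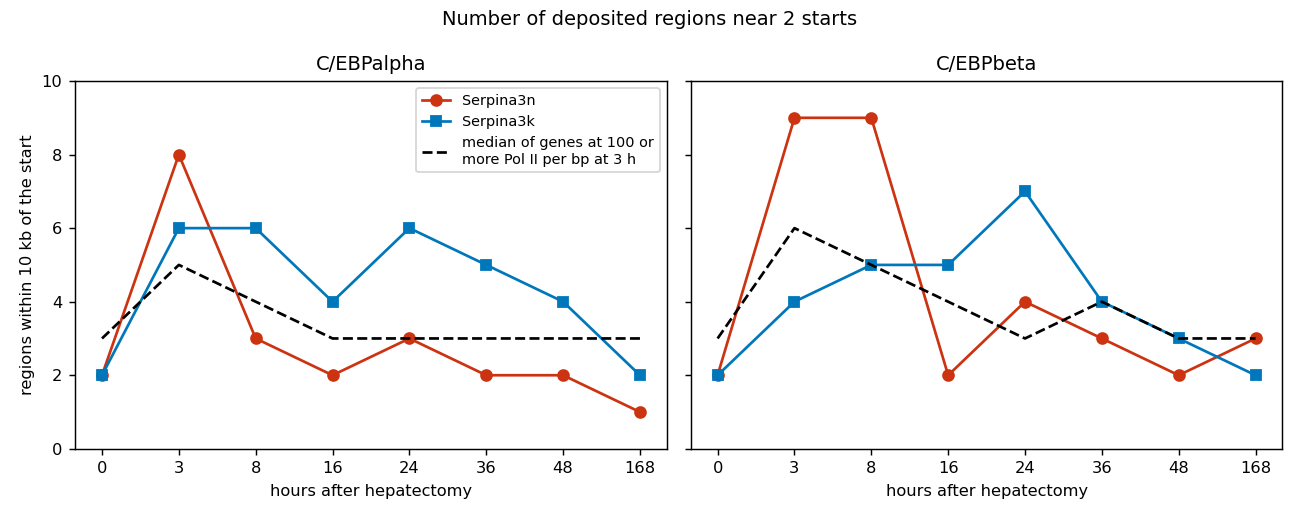
Number of C/EBPalpha (left) and C/EBPbeta (right) regions within 10 kb of the start (y axis) at 8 times (x axis, hours, evenly spaced), 1 list per point. Serpina3n reaches 8 and 9 at 3 h and is back at 2 by 16 h, Serpina3k stays at 3 or more from 3 to 48 h, and the dashed median of the 35 genes at 100 or more Pol II signal per bp at 3 h is at most 6.

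Egr1, an immediate early factor measured at 36 h only, had a region within 10 kb of 2 of the 7 starts, against 10.9% of all measured genes. Near Serpina10 the peak at 104873767 to 104874539 was centred at -4522 bp, with score rank 2647 of 9895, and it contains the C/EBP site at -4741 that was in all 16 lists. Near Serpina6 the peak at 104899891 to 104900791 was centred at -7918 bp, with rank 6191. Neither was within 1 kb of a start. Serpina3n, Serpina3k, Serpina3g and Serpina7 had none within 10 kb, nor had the Serpina3m entry, counted from the Serpina3k start. In the stretch of that entry past Serpina3k lay 5 Egr1 peaks. What Egr1 bound at other times was not analysed here.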

How the data were processed

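ChIP-seq of Pol II, C/EBPalpha and C/EBPbeta at 8 times and of Egr1 at 36 h gave 25 files, used here for 26 samples less the mock sample, which was not analysed here. The submitters' processing notes name Bowtie (0.12.7), MACS (1.4.1) and mm9 but assign them no roles. The deposited values are scores: per the file headers the C/EBP score is a difference or sum, scaled by the authors within each list, the Egr1 score belongs to MACS peaks by their names, and the Pol II score is a signed signal per gene. The sources used here do not give filters, controls or scaling between libraries.

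Of 31804 gene entries 20933 were kept, with a unique name and a body of 500 bp or more. Starts are bodies moved back by 500 bp. Libraries were rescaled with median-of-ratios factors from the 1472 genes whose signal per bp passed 0.5 in every library, which moved log2 changes against 0 h by 0.26, 0.33, -0.32, 0.41, -0.01, 0.33 and 0.97 from 3 to 168 h, so changes are relative to these genes. The trend test was limma 3.58.1 in R 4.3.3, using ranked times and a spline of 3 degrees of freedom for 4750 genes, adjusted by Benjamini-Hochberg and called under 0.05. It was also run on simulated data with a smooth rise and fall planted and with less spread than measured. That run does not show whether a peak in a single library would be called. With 1 library per time the spread in the trend test is that of libraries around a curve. Levels of gene pairs were compared by exact sign-flip permutation over 8 libraries.

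All 7 members are named. Of other lists, the highest and lowest by mean level and any gene called by the trend are named, as are the 5 genes most correlated with Serpina3n and with Serpina3k. Serpina1b, Serpina1d, Serpina3c, Serpina11, Proz, Cebpa and the genes named for their number of regions were added after their values were seen. The members and lists were chosen with earlier results of these data known. Batches of libraries are not given, so batch and time cannot be told apart.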

Additional observations from a re-analysis of the deposited data

How the results depend on the processing

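No paired analysis was possible because each antibody and time has 1 library and the labels pair none. The number of members called by the trend was 0 in all 14 alternatives, with the smallest adjusted p among members between 0.170 (without the 0 h library) and 0.712 (no filter). At an unadjusted p under 0.05, 5 members passed without the 0 h library and 4 with time as log2 hours, where the number over all 4750 genes was also higher, at 934 and 754 in place of 457. All 6 differences of Serpina3n from another member kept their direction, and 5 kept their side of 0.05. Among the 5 were those from Serpina3g, Serpina6 and Serpina7, which were at or near background. For Serpina3m, leaving out 1 library gave 0.57 to 1.08, and the adjusted p passed 0.05 without the 0 h library (0.96, p = 0.0469 by the exact test) and without the 24 h library (1.08, p = 0.0313 by the exact test). With regions of score 100 or more, 19 pairs of a gene and a list remained for C/EBPalpha and 23 for C/EBPbeta, in place of 49 each. Members with an Egr1 region numbered 1 in the higher-scoring part of the list, 0 within 1 kb and 5 within 50 kb. Members higher by 1 at 168 h numbered 0 without rescaling, an alternative added after the data were seen, in place of 2. The 3 h change of Serpina10 was 3.02 with 2 added before the log2. Files without read counts allow no counting error, so how far depth limits the low genes is unknown, and sites missing from single lists cannot be told from sites below a list's threshold.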

Other observations

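Within the cluster, Serpina11 at 105218466 to 105227631, a gene outside the 7 and described after its values were seen, combined high C/EBP ranks with a Pol II rise at 3 h. Within 1 kb of its start, the best regions of C/EBPalpha and C/EBPbeta ranked in the top 0.809% and 0.552% of a list, and both factors had a region within 1 kb in all 8 lists. An Egr1 peak also lay within 1 kb, with rank at 4.91% of its list. The Pol II level was 1.03 (0 h), 7.61 (3 h), 3.28 (8 h), 3.97 (16 h), 1.56 (24 h), 0.906 (36 h), 2.53 (48 h) and -0.120 (168 h) (limma trend, adjusted p = 0.557).

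Serpina5, named after its values were seen, had 2 sites in all 16 C/EBP lists within 10 kb and regions within 1 kb in all 8 lists of each factor, whereas its Pol II level was above 0 in 1 of 8 libraries (0.158 at 0 h).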
